A study of Mus musculus with 8 samples.

Results

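The genes of the regulators of G protein signalling (RGS) described here are Rgs1, Rgs2, Rgs3, Rgs10, Rgs14, Rgs16, Rgs18 and Rgs19. They are 8 of the 22 RGS genes, and of the 22549 genes, in a table of expected read counts. They were chosen by their measured skin and spleen levels, so their levels in the 2 tissues are a description and carry no test. The libraries came from iNKT (invariant natural killer T) cells, lymphocytes whose semi-invariant receptor recognises lipids on CD1d. Skin and spleen gave 4 libraries each, and all 8 carried the genotype CCR10+/EGFP, that is, 1 EGFP allele at the chemokine receptor locus Ccr10 in both groups. The sources used here give no age, sex, strain background or treatment of the mice, no sorting gate and no number of cells or animals per library.

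RGS proteins end signalling by G protein-coupled receptors. A receptor loads the alpha subunit of its G protein with GTP, alpha and the beta-gamma dimer then act on their effectors, and an RGS protein speeds the hydrolysis of that GTP. In lymphocytes this sets how long a cell responds to chemokines and other ligands, and Rgs1 in particular is known to damp chemokine-driven migration. Rgs1, Rgs2, Rgs3, Rgs16 and Rgs18 belong to the small R4 class, Rgs10 and Rgs14 to the R12 class and Rgs19 to the RZ class.

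Because Rgs2 and Rgs3 stood furthest apart between the tissues, in opposite directions, the bases before a RefSeq start of each are shown (build GRCm38.p6, which is not the mm9 build named in the submitters' processing notes). A promoter was found in the RefSeq table for 5 of the 8 genes, and not for Rgs1, Rgs14 or Rgs18. The Rgs2 window is chr1:144004162-144004399 on the minus strand and ends where the first GENCODE exon base begins. It leaves out the last 12 bases before the RefSeq start, and the positions given below are counted to that start. The Rgs3 window, chr4:62559597-62559846 on the plus strand, lies before the more upstream of the 2 listed starts and overlaps no GENCODE exon. Capitals mark the short form of the cyclic AMP response element (TGACG, or CGTCA on the other strand) and the CCAAT box, 5′ to 3′.
Rgs2: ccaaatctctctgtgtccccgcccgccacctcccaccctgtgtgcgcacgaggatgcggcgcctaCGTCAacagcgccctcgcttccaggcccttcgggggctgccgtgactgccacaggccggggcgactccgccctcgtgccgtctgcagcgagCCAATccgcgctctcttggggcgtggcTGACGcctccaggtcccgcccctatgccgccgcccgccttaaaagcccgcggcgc
Rgs3: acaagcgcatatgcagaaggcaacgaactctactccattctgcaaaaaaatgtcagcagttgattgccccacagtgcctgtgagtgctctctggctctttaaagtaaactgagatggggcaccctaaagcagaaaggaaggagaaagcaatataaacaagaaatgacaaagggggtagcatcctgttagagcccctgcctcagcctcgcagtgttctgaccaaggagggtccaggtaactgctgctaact
The Rgs2 window held 2 copies of the short form, beginning 185 and 67 bases before the start, and 1 CCAAT box 94 bases before it. The Rgs3 window held neither. On either strand of the 250 bases before a start, TGACG was present in 17.8% of all 32851 windows in the table and CCAAT in 33.8%. The full element TGACGTCA was present in 1.55% of them and in the window of neither gene. The Rgs2 window also held 4 copies of GGGCGG (present in 32.7% of windows) and a TTAAAA 29 bases before the start (17.7%). The GC content of the 250 bases was 72.4% for Rgs2 and 48.4% for Rgs3. A match of letters describes the window and shows no bound factor. Expected counts are summed per gene, so they do not say which start was used.

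Levels are given as CPM, counts scaled to a common library size, here with edgeR's TMM factors. Library totals ranged from 7191131 to 9791973 expected counts, so 3 counts, taken as the floor of detection, correspond to 0.292 to 0.454 CPM. Without molecular identifiers on the reads, these floors cover counting error alone. Skin libraries held a count for 5302 to 6012 genes and spleen libraries for 6415 to 10094. Of the summed CPM of 10 iNKT and T cell markers, skin libraries had 3992 to 5220 and spleen libraries 5264 to 7604. Of these markers, Klrb1c had no count in skin, and Zbtb16, the lineage factor, averaged 44.5 ± 25.7 CPM in skin libraries and 66.6 ± 63.0 CPM in spleen libraries (SD, n = 4 each). Ccr10 stood at 20.5 ± 23.7 and 19.6 ± 17.3 CPM. Labels do not tie libraries to separate animals, so the spread behind each p-value is that between libraries and may be technical.

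Rgs2, which acts mainly on Gq-type alpha subunits, was the RGS transcript at the highest level in skin. It stood at 5814, 5280, 5643 and 5651 CPM in skin replicates 1 to 4. In spleen replicates 1 to 4 it stood at 52.6, 82.9, 104 and 239 CPM. The lowest skin library was thus far above the highest spleen library, and spleen replicate 4 was the highest of its tissue. The means were 5597 ± 225 and 120 ± 82.3 CPM (SD, n = 4 each), a ratio of 46.8 and a log2 fold change of 5.55 ± 0.48 (SE). Without spleen replicate 4 the spleen mean was 79.9 ± 26.0 CPM (n = 3). In bulk libraries fewer cells with a transcript and less of it per cell cannot be told apart.

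The 4 skin values of Rgs2 lay close together. Their coefficient of variation was 4.03%, and none of the other genes among the 148 with a skin mean of at least 1000 CPM had a smaller one (median 25.2%). For Rgs1 it was 23.9%, with 68 of those genes below it. This spread uses no spleen value, but the skin values are among those that chose the genes, so it is a description.

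Rgs1, the R4 protein known for damping chemokine receptors in lymphocytes, had the next highest skin level. It stood at 3024, 2568, 3277 and 4431 CPM in skin replicates 1 to 4. In spleen it stood at 96.8 CPM in replicate 1, 0 in replicate 2, 35.9 in replicate 3 and 262 in replicate 4. The tissues did not overlap, but the spleen libraries ranged from no count to the level of replicate 4. Means were 3325 ± 794 and 98.7 ± 116 CPM (SD, n = 4 each), a ratio of 33.7 and a log2 fold change of 5.07 ± 1.54 (SE). Without spleen replicate 4 the spleen mean was 44.2 ± 48.9 CPM (n = 3).

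The other R4 genes of the list went the other way or were near absent. Rgs3, which acts on Gi and Gq alpha subunits and is made in long and short forms, had no count in any skin library. It stood at 173, 323, 406 and 183 CPM in spleen replicates 1 to 4. Every spleen library was thus far above the floor, and replicate 3 was the highest. The spleen mean was 271 ± 113 CPM (SD, n = 4), at least 701-fold above the skin floor of 3 counts per library. This bounds the counts, not transcripts lost before sequencing. Of 642 genes with a spleen mean of 200 to 400 CPM, 8 (1.25%) had no count in all 4 skin libraries. Rgs3, chosen on these values, is among them, and the share does not separate absent transcripts from missed ones. Rgs16, which is induced in activated T cells, had 21 counts in skin replicate 1 (3.18 CPM) and none in the other 7 libraries. Rgs18, known from platelets and megakaryocytes, had no count in any library, which allows at most 0.454 CPM. All 7 platelet markers also stood at 0 in all 8 libraries.

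Rgs19, an RZ protein that acts on Gi-type subunits, was high in every spleen library and in 1 skin library. Spleen replicates 1 to 4 stood at 284, 209, 281 and 221 CPM. Skin replicate 1 stood at 164 CPM, replicate 2 had 1 count, and replicates 3 and 4 had none. No skin library reached the lowest spleen library. Means were 41.1 ± 82.2 and 249 ± 39.4 CPM (SD, n = 4 each), with a log2 fold change of -2.60 ± 2.29 (SE). The skin mean rested on replicate 1, and the other 3 libraries averaged 0.0367 CPM.

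Rgs14, an R12 protein that also binds Ras-family GTPases and, through its GoLoco motif, inactive Gi subunits, had the same order of tissues. It stood at 96.8, 225, 193 and 135 CPM in spleen replicates 1 to 4. In skin it stood at 65.4 and 75.6 CPM in replicates 2 and 3 and had no count in replicates 1 and 4. The tissues did not overlap, and the gap between the highest skin and the lowest spleen library was small. Means were 35.2 ± 40.9 and 163 ± 57.4 CPM (SD, n = 4 each), with a log2 fold change of -2.21 ± 2.03 (SE). Where the other 3 skin libraries averaged 50 to 100 CPM for a gene, 32.6% of skin values stood at 0. At 100 to 200 CPM the share was 15.2%, and in spleen these shares were 14% and 5.71%. Single zeros were therefore common in skin in these ranges. Rgs14 lay just below them, at 47.0 CPM over the other 3 skin libraries without replicate 1 or without replicate 4. The shares are of single values and not of genes with more than 1 zero.

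Rgs10, the small R12 protein that acts on Gi-type subunits, was low in both tissues. Skin replicates 3 and 4 stood at 48.6 and 55.8 CPM, and spleen replicates 3 and 4 at 16.4 and 30.03 CPM. The other 4 libraries had no count, so the tissues overlapped. The log2 fold change of Rgs10 was 1.17 ± 2.86 (SE), and it took the opposite sign under limma-voom (-2.47). The values do not show whether Rgs10 differed.

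**Figure D1:**
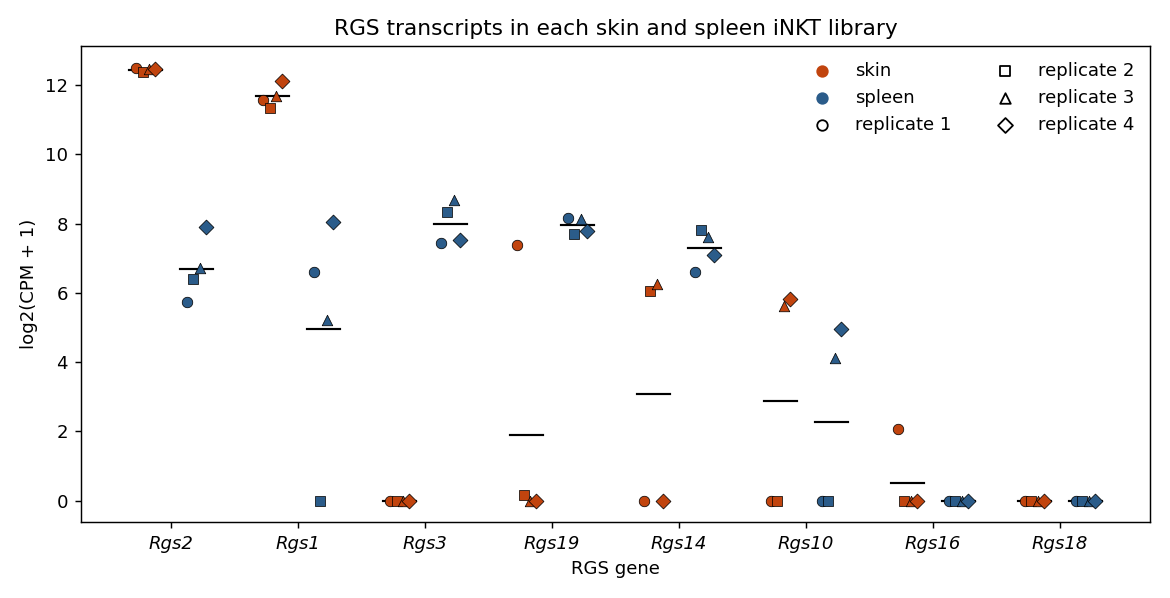
Level of the 8 RGS genes in each library as log2(CPM + 1), with skin in orange, spleen in blue, 1 symbol per replicate, and a black line at the mean of the 4 plotted values. Rgs2 and Rgs1 lie higher in all 4 skin libraries than in any spleen library, Rgs3 has a count in spleen alone, and Rgs18 has none.

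Of the 6 RGS genes that passed the low-count filter, Rgs2 and Rgs3 passed an adjusted p of 0.05 in the edgeR fit across all genes, 1 higher and 1 lower in skin. The background was 5.43% of the 6920 genes tested (1.85% higher and 3.58% lower). The values of the tissues did not overlap for 5 of the 6 (2 higher, 3 lower), against 19.5% of all genes tested (6.11% higher and 13.4% lower). These 6 passed the filter in part through the tissue in which they are high, and nothing is read from these counts. Fits without 1 library reuse the values that chose the genes, so they only show which library a value rests on. Rgs3 no longer passed without spleen replicate 3, where the spleen mean was 226 ± 83.6 CPM (n = 3). Rgs1 passed only without spleen replicate 2, the one with no count, and Rgs19 only without skin replicate 1, the one that carried its skin counts. Rgs10 and Rgs14 passed in none of these 8 fits.

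The remaining 14 RGS genes in the table added little. Counts were found for 3 of them, and 11 stood at 0 in every library, among them Rgs13, a gene of germinal centre B cells and mast cells, and Rgs5, a gene of pericytes. Rgs12, the large R12 protein, stood at 49.5, 16.4 and 28.1 CPM in spleen replicates 2, 3 and 4, and at 0 in spleen replicate 1 and in skin. Rgs11 had 9.81 CPM in spleen replicate 4 alone. The anchoring partner Rgs7bp had 1 count in spleen replicate 2. None of the 14 reached the filter for the test.

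Different RGS transcripts made up the family in the 2 tissues. To set genes beside each other, CPM were divided by the length of the longest coding GENCODE transcript. On this per-length scale Rgs2 stood at 1853 ± 74.6 CPM per kb in skin and Rgs1 at 866 ± 207 (SD, n = 4). Together they made up 96.1% to 98.9% of the RGS level per kb in the skin libraries. In spleen Rgs19 led with 164 ± 26.1 CPM per kb, before Rgs14 (69.0 ± 24.3), Rgs3 (57.7 ± 24.1), Rgs2 (39.6 ± 27.3) and Rgs1 (25.7 ± 30.2). Rgs14, Rgs3, Rgs2 and Rgs1 are neighbours within their spread, while Rgs19 was above each of the other 4 in every spleen library. Rgs3, Rgs14 and Rgs19 together made up 55.9% to 89.2% of the RGS level in spleen and at most 3.86% in skin. The lowest of these spleen shares was in replicate 4, where Rgs1 and Rgs2 took 34%, against 8.1% to 13.8% in the other spleen libraries.

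Within the whole transcriptome, Rgs2 ranked between 19 and 29 per kb in the skin libraries and between 1222 and 3409 in the spleen libraries. Rgs1 ranked between 39 and 116 in skin. Rgs19 ranked between 452 and 641 in spleen. Ranks are among the 9843 genes with a count and a matched length (86.1% of the genes with a count). The sources used here do not give the transcript lengths behind the counts, so orders between genes at similar levels could shift.

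**Figure D2:**
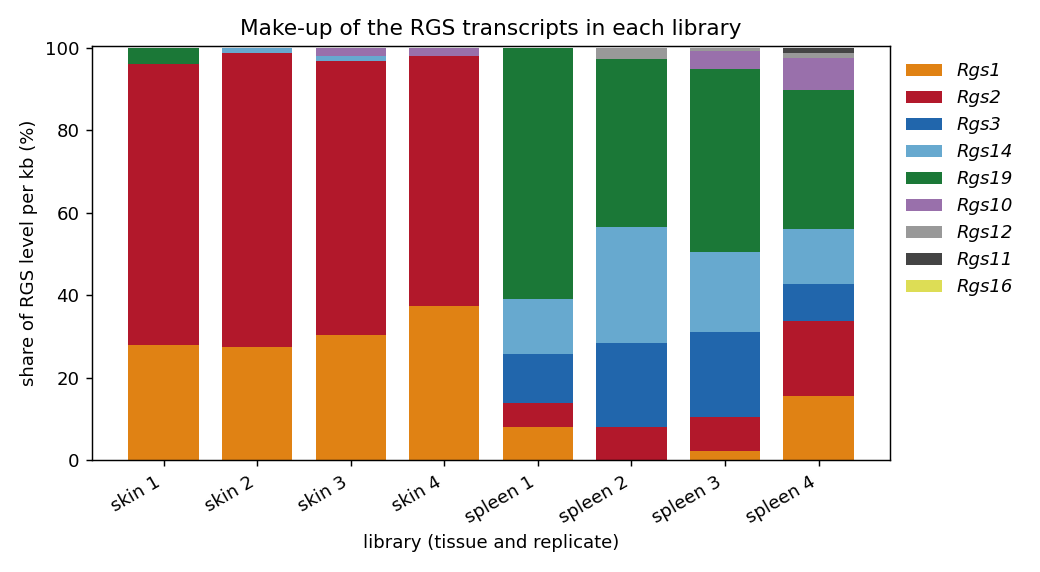
Share of each RGS gene in the summed RGS level per kb (percent, stacked bars) in each of the 8 libraries. Rgs1 and Rgs2 fill at least 96.1% of each skin bar, while Rgs3, Rgs14 and Rgs19 fill 55.9% to 89.2% of the spleen bars.

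Immediate early genes, whose transcription follows stimulation or handling within minutes, were also higher in sum in the skin libraries and in spleen replicate 4. Their summed CPM over 24 genes was 13663, 14509, 26451 and 19820 in skin replicates 1 to 4. In spleen it was 1450, 2415 and 1584 in replicates 1 to 3 and 11661 in replicate 4. Spleen replicate 4 thus stood near the skin libraries for this list, and it also held the highest Rgs1, Rgs2 and Rgs10 of the spleen. It also held a count for the most genes of any library (10094). In it 0.78% of the genes tested stood at 0, against 4.84% to 22.4% in the other spleen libraries. The part of this in the RGS levels was not tested. Within skin the orders of the immediate early sum, Rgs1 and Rgs2 differed. The sum was highest in replicate 3 and lowest in replicate 1, where Rgs2 was highest, and Rgs1 was highest in replicate 4. Fos, an AP-1 subunit, reached 950 CPM in spleen replicate 4, and 0.0974 CPM at most in the other spleen libraries. Junb, another AP-1 subunit, reached 3048 CPM, against 156 to 236 CPM. Of the 24 genes 17 were tested. By edgeR 1, the nuclear receptor Nr4a2, was higher in skin and 0 were lower, beside 1.85% and 3.58% of all genes tested. The median log2 fold change of the 17 was 2.20, beside -0.29 over all genes tested. Without spleen replicate 4, 8 genes of this list were higher, Fos and Junb among them, where 64 of all 7052 genes tested were higher. Leaving out the spleen library that was high for this same list favours such calls, so nothing is read from that count. Spleen replicate 4 and skin replicate 1 were the nearest libraries of the 2 tissues in the immediate early sum, but not in its make-up. Nr4a1 stood at 134 CPM in spleen replicate 4 and 1257 CPM in skin replicate 1, and Dusp1 at 2032 and 759 CPM. Rgs2 was 239 CPM in spleen replicate 4 and 5814 CPM in skin replicate 1. For Rgs1 the same libraries had 262 and 3024 CPM. Without spleen replicate 4 the log2 fold change was 6.13 for Rgs2 and 6.23 for Rgs1. The part of the immediate early response in the level of either gene was not tested.

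**Figure D3:**
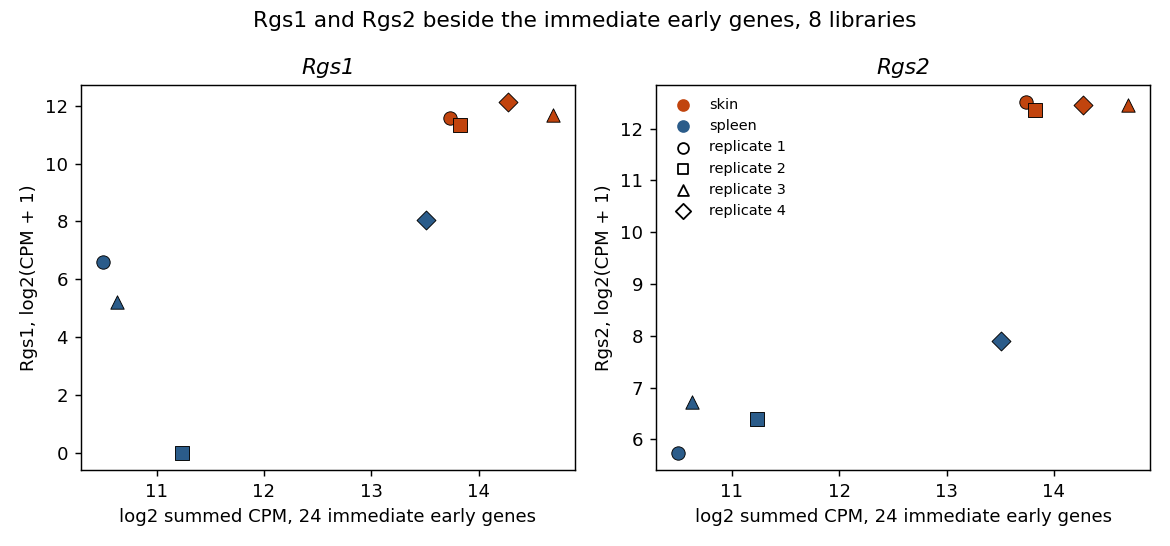
Rgs1 (left) and Rgs2 (right) as log2(CPM + 1) against the log2 summed CPM of 24 immediate early genes, with 1 point per library, skin in orange and spleen in blue. Spleen replicate 4 lies near the skin libraries on the horizontal axis, at 11661 summed CPM, and below all of them on the vertical axes.

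Markers of other cell types were checked in the same libraries. Keratinocyte markers summed to 273 to 1032 CPM in skin and 0 to 29.5 CPM in spleen. Of the 10, 7 had a count in skin, while Dsp and Trp63 stood at 0 in all 8 libraries. Rgs1 and Rgs2 were above this sum in each skin library. This sets no limit on the part of keratinocytes, whose own RGS levels were not measured here. Dendritic cell markers summed to 68.9 to 347 CPM in skin and 21.7 to 382 CPM in spleen, with Cd207, Flt3 and Zbtb46 at 0 everywhere. Itgax had a count in skin replicate 2 alone (38.2 CPM). The rest of the sum came from the MHC class II genes Cd74, H2-Ab1 and H2-Aa. All 7 mast cell markers stood at 0 in all 8 libraries. B cell markers had no count in skin and summed to 31.5 to 166 CPM in spleen, where Pax5 and Cr2 stood at 0. Erythroid markers summed to at most 2.12 CPM in skin and to 111 to 274 CPM in spleen. The part of these cells in the RGS levels was not tested.

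Genes of the G protein subunits were measured alongside the RGS genes. Of 15 alpha subunit genes 7 were tested, 2 were higher in skin and 0 lower, beside 1.85% higher and 3.58% lower of all genes tested. Gnai2, the main Gi alpha subunit of lymphocytes, averaged 1593 ± 335 CPM in skin against 777 ± 85.6 CPM in spleen, a rise of 1.04 ± 0.20 (SE) on the log2 scale (edgeR, adjusted p = 0.0352). Gnas, the Gs alpha subunit that activates adenylyl cyclase, averaged 1723 ± 572 against 796 ± 96.3 CPM, a rise of 1.11 ± 0.26 (SE) on the log2 scale (edgeR, adjusted p = 0.0473). For both the tissues did not overlap, and the lowest skin library was replicate 4. Both kept their call in 1 of the 8 fits without 1 library, the one without skin replicate 4, with an edgeR adjusted p of up to 0.115 and 0.137 in the others. Gnai3, another Gi alpha subunit, averaged 810 ± 249 CPM in skin against 346 ± 106 CPM and did not pass (edgeR adjusted p = 0.0715). Gna13 stood at 401 ± 294 and 42.0 ± 33.6 CPM, and Gnal at 30.9 ± 32.0 and 132 ± 68.8 CPM. Neither passed. Of the Gq-type alpha subunits, Gnaq had 3 counts in skin replicate 1, 1 count in spleen replicate 2 and none elsewhere. Gna14 had no count in any library. Gna11 stood at 41.9 ± 60.2 and 9.41 ± 10.9 CPM, with a count in 2 libraries of each tissue. Gna15 stood at 28.2 ± 26.1 and 44.8 ± 22.2 CPM. Gna11 and Gna15 did not pass. The median log2 fold change of the 7 genes tested was 1.11, beside -0.29 over all genes tested.

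Of 17 beta and gamma subunit genes 6 were tested and 0 passed. Gnb1 came closest, with 566 ± 135 CPM in skin against 257 ± 48.5 CPM (edgeR, adjusted p = 0.0529, and 0.046 without skin replicate 4). Gnb2 stood at 273 ± 136 and 107 ± 53.6 CPM and Gng5 at 361 ± 76.4 and 298 ± 46.3 CPM. The median log2 fold change of the 6 was 0.80. Of 8 receptor kinases and arrestins, which silence the receptor itself, 4 were tested and 0 passed, and all 4 were fitted below 0 (median -1.27). Adrbk1, the kinase also called GRK2, averaged 108 ± 59.3 CPM in skin against 315 ± 125 CPM. Grk6 stood at 145 ± 84.2 and 290 ± 109 CPM.

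Proteins with an RGS-like domain outside the family, and helpers of the G protein cycle, showed 1 call. Of 9 RGS-homology genes 6 were tested and 1 was lower in skin, beside 3.58% of all genes tested. Arhgef12, a guanine nucleotide exchange factor with an RGS-like domain, stood at 30.3 ± 16.2 CPM in spleen and had no count in skin (at least 78.2-fold lower; edgeR adjusted p = 0.0473). Its call was lost in each of the 8 fits without 1 library (adjusted p of 0.0816 to 0.137) and when no low-count filter was used. Genes with no count in skin were common at such levels: of 1873 genes with a spleen mean of 50 to 100 CPM, above that of Arhgef12, 177 (9.45%) had none in all 4 skin libraries. Its relative Arhgef1 averaged 333 ± 94.1 CPM in skin against 818 ± 260 CPM, without overlap, and did not pass (edgeR adjusted p = 0.0596). Of 10 genes of the G protein cycle 4 were tested and 0 passed, with Gpsm3, a GoLoco protein, at 39.0 ± 8.65 and 47.1 ± 8.17 CPM.

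Downstream of the G proteins, Crem and Prkar1a passed, and both calls were lost in most fits without 1 library. Of 24 effector genes 12 were tested and 0 passed. Adcy7, an adenylyl cyclase of lymphocytes, stood at 0 in skin replicates 1 and 2, at 19.98 CPM in replicate 3 and at 116 CPM in replicate 4. It ranged from 245 to 520 CPM in spleen, and did not pass (edgeR adjusted p = 0.712). Of 20 genes of cyclic AMP signalling 13 were tested, 2 were higher in skin and 0 lower, beside 1.85% and 3.58% of all genes tested. Crem, the cyclic AMP responsive element modulator, stood at 4690, 5040, 3474 and 4434 CPM in skin replicates 1 to 4. In spleen it stood at 0, 19.8, 0.143 and 22.0 CPM. The tissues did not overlap, and the fitted rise was 8.72 ± 1.81 (SE) on the log2 scale (edgeR, adjusted p = 0.0463). The call of Crem was kept without spleen replicate 1 and lost in the other 7 fits without 1 library (edgeR adjusted p of up to 0.118). It was also lost with no low-count filter and under limma-voom. Prkar1a, a regulatory subunit of protein kinase A, averaged 2265 ± 267 CPM against 1138 ± 192 CPM, a rise of 0.99 ± 0.16 (SE) on the log2 scale (edgeR, adjusted p = 0.0195). It kept its call without skin replicate 4 or spleen replicate 1, and reached up to 0.0772 in the other 6 fits. Prkacb, a catalytic subunit of the same kinase, averaged 43.4 ± 50.8 CPM in skin against 214 ± 59.1 CPM. Pde4b, a phosphodiesterase that degrades cyclic AMP, stood at 324 ± 212 and 103 ± 76.8 CPM. Neither passed.

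Of 71 receptor genes of lymphocytes 28 were tested, 1 was higher in skin and 2 were lower, beside 1.85% and 3.58% of all genes tested. The higher one was the chemokine receptor Ccr8, and the lower ones were the chemokine receptor Ccr9 and the adhesion receptor Cd97. Cd97 alone of the 3 passed in all 8 fits without 1 library. Of the fits without 1 library, Ccr8 kept its call in that without spleen replicate 4, and Ccr9 lost its call without any 1 spleen library (edgeR adjusted p of up to 0.137 for both). P2ry10, a receptor for lysophosphatidylserine, stood at 611, 299, 388 and 432 CPM in skin replicates 1 to 4 and at 0 to 16.4 CPM in spleen. Its groups did not overlap and it did not pass (edgeR, adjusted p = 0.054), although it did without spleen replicate 1 (0.00869). Cxcr6, the receptor of the highest mean level on the list, stood at 3518 ± 901 and 2660 ± 622 CPM and overlapped between the tissues. Over the 28 the median log2 fold change was 0.22.

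**Figure D4:**
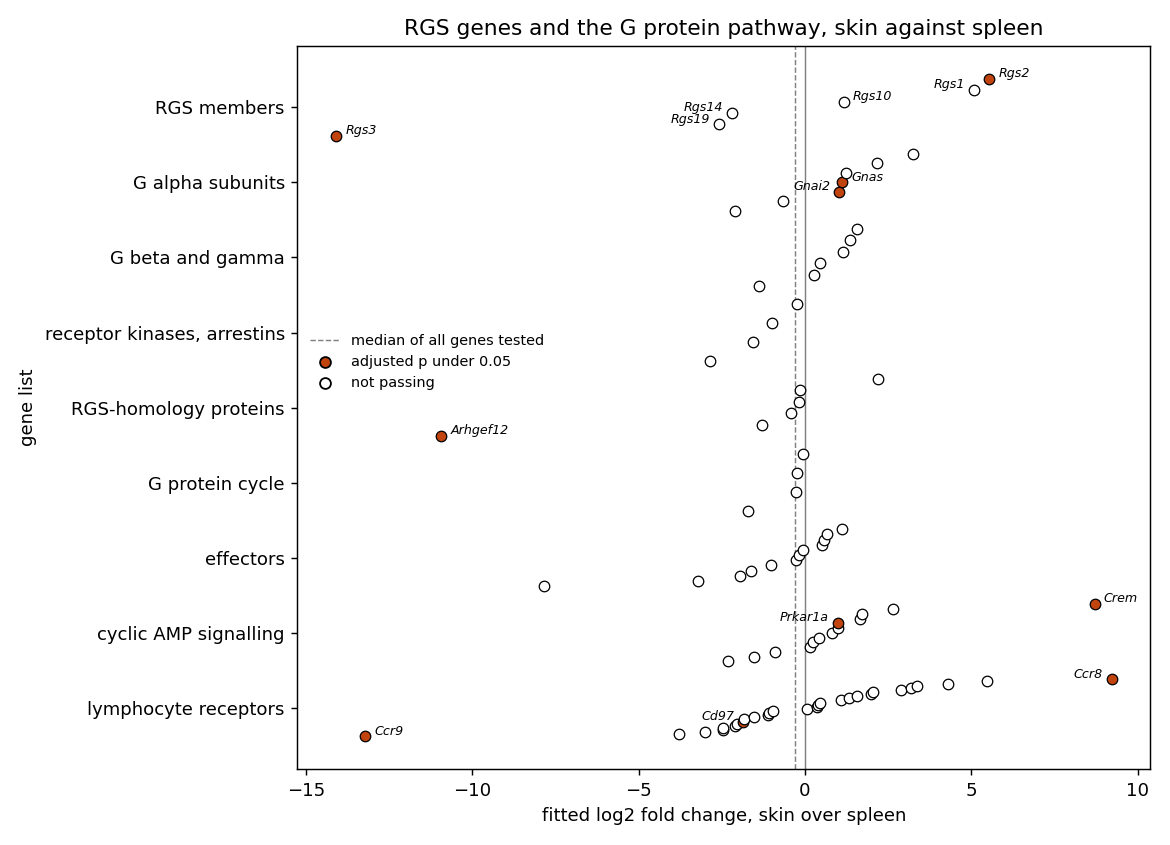
Fitted log2 fold change, skin over spleen, of each tested gene in the RGS family and in 8 pathway lists. Filled points passed an adjusted p of 0.05, and the dashed line is at the median of all genes tested (-0.29). Immediate early genes are not drawn, and none of the remaining 14 RGS genes was tested. Rgs2 and Rgs3 lie at opposite ends of their row, and fitted values of genes with no count in a tissue, such as Rgs3, depend on the prior count and are no measured fold.

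Genes with the most similar pattern to each RGS gene were found from log2 CPM over the 8 libraries, each centred on its mean, by the root mean square difference. The 8 libraries fall into 2 tissues, so the measure mainly matches the size of the tissue gap. Nearest to Rgs2 were Vps37b (0.443 log2 units), a subunit of the membrane sorting complex ESCRT-I, then Gpr25 (0.914), an orphan receptor, and Vegfa (0.953), a vascular growth factor. Vps37b averaged 7125 CPM in skin and 130 CPM in spleen. Gpr25 averaged 7.71 and 0.372 CPM and Vegfa 57.0 and 0.743 CPM. The spleen values of Gpr25 and Vegfa lay near the floor, where the log2 gap depends on the prior count. Nearest to Rgs1 were Tob2 (0.963), an antiproliferative factor, Sertad1 (1.44) and Gem (1.49), a small GTPase. These differences were larger than those of the nearest genes of the other RGS genes tested, rank for rank. Nearest to Rgs3 were Ganab (0.234), Gimap7 (0.335) and Plac8 (0.377), each with no count in skin. Nearest to Rgs14 were Ctnnbl1 (0.308), Tex264 (0.387) and Epsti1 (0.459). For Rgs19 they were Dscr3 (0.309), Prkag1 (0.369) and Sh2d1a (0.370), the SLAM adaptor SAP, and for Rgs10 Cyb5r1 (0.263), Lpin2 (0.357) and Cd200r4 (0.364).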

How the data were processed

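RNA was taken from iNKT cells of skin and spleen, and cDNA was made with a full-length low-input kit that does not mark strand, per the labels' protocols. The authors deposited expected counts per gene from RSEM, which shares reads between the genes they match, 1 column per library. The submitters' processing notes also name FastQC, DESeq2 1.16.1 and mm9, a mouse genome build. The annotation is not given in the sources used here, nor is the aligner.

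Columns were matched to libraries through the descriptions in the labels, and 0 columns were left unused. Expected counts were rounded. edgeR 4.0.16 in R 4.3.3 (filterByExpr, TMM, robust quasi-likelihood fit, tissue as the only term, Benjamini-Hochberg adjustment at 0.05) tested 6920 of 22549 genes, with 6 residual degrees of freedom and a common dispersion of 2.94. The fit was also run on simulated data. The result required there was for a smaller spread than in these data, so its power here is not shown. SE is the log2 fold change divided by the square root of F. No 2 libraries agreed within sampling noise (smallest chi-square per degree of freedom 118). Same-numbered skin and spleen libraries did not deviate together (correlations across genes of 0.00175 to 0.0105).

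The members, gene lists and tests were chosen with earlier results of these data known. Named were the 8 members, other RGS genes with a count, called members of each pathway list (at most 5) and up to 4 uncalled ones of high level (some left out for brevity), Fos, Junb, Ccr10 and the 3 genes most like each member. Promoter motifs were picked, and the Gq-type alpha subunit genes added, after the values were seen. Of 312 listed symbols 310 matched. Likeness used a prior count of 2. Alternatives were other scalings and filters, DESeq2 1.42.0, limma-voom (limma 3.58.1), rounding down, a replicate block and each library left out.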

Additional observations from a re-analysis of the deposited data

Results flagged for a closer look

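A library stood far from the other 3 of its tissue in 11 of the 105 sets of 4 values checked (gap to the next value over the whole range, above Dixon's 95% critical value), where chance gives about 1 in 20 for values that spread normally. In 5 of the 11 the other 3 values were 0, where any count at all stands apart in this way, so the 11 cannot be read against that rate. Of the RGS genes, Rgs19 stood at 164 CPM in skin replicate 1, and the next skin library had 0.110 CPM. Rgs16 stood at 3.18 CPM in skin replicate 1, Rgs11 at 9.81 CPM in spleen replicate 4 and Rgs7bp at 0.114 CPM in spleen replicate 2, each against 0 in the other 3.

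Spleen replicate 4 was the highest of its tissue for Fos (950 CPM), Junb (3048 CPM), the immediate early sum (11660 CPM) and Ccr8 (9.22 CPM). Arrb2 stood at 42.5 CPM in skin replicate 1, against at most 1.76 CPM in the others. Gpsm1 stood at 73.1 CPM in skin replicate 3, against 0. Adcy7 stood at 520 CPM in spleen replicate 2, against 245 to 256 CPM.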

How the results depend on the processing

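The RGS genes were chosen on these values, so their passes are no support. The log2 fold change of Rgs2 ranged from 5.25 to 6.13 over all settings, and Rgs1 passed under DESeq2 and Rgs19 under limma-voom. Rgs10 reversed under limma-voom (-2.47), and the cause was not tested. Counts over all genes (128 higher, 248 lower) became 295 and 447 under DESeq2 and 207 and 500 under limma-voom. Without a filter 97 were higher and 48 lower, so that 66.9% of calls were higher in place of 34%. Leaving out 1 library gave 47 to 102 higher and 17 to 111 lower (44.2% to 76.2% of calls higher). Over the pathway lists without the immediate early genes, 5 higher and 3 lower became 8 and 7 under DESeq2, 3 higher without a filter, 5 lower under limma-voom, and 0 to 4 higher and 1 to 4 lower without 1 library. The replicate block, for numbers that do not pair the libraries, gave 36 higher and 14 lower genes, 0 higher and 1 lower members of those lists, and no call for Rgs3. Of the 4 skin libraries, 1 correlated best with the spleen library of its own number. With a prior count of 0.5, Rgs2 kept 2 and Rgs19 1 of their 3 most similar genes. Zeros in skin limit what genes below about 200 CPM can show.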
